A study of Mus musculus with 9 samples.

Results

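A set of 9 genes for the signals by which tumor cells hold off macrophages and T cells were followed through whole-tumor RNA-Seq of mouse osteosarcoma (OS). They were chosen by symbol: Cd47, Cd24a, Sirpa, Calr, Cd274, Pdcd1lg2, Cd276, Havcr2 and Lgals9. All 9 were among the 55367 genes of the count table, and 8 of them, all but Pdcd1lg2, had enough reads to be among the 15365 genes tested. Tumors arose spontaneously in 2 genetically engineered mouse models (GEMMs). The p53-driven group comprised F187, F325, F331 and F368, whose genotype was Col2.3-Cre/TrpP53fl/+, that is, 1 floxed allele of the p53 gene and a Cre recombinase driven by the osteoblast promoter Col2.3. The Myc-knockin group comprised M351, M408, M9, M624 and M664, which carried the Lox-Stop-Lox (LSL) allele c-MycT58A with Cre and p53fl/+, so that both groups share the Cre and the floxed p53 allele and differ in a Myc transgene that Cre switches on. The labels name no treatment, and ages were not used here. Column names and sample labels do not match: M351, M9 and M664 were taken as Myc-knockin from the letter M alone, and the other 6 column names stand under their genotype in the study's supporting data.

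A macrophage decides whether to engulf a cell by weighing inhibitory against pro-phagocytic signals. CD47 on the target cell binds SIRPα, encoded by Sirpa, on the macrophage, and SIRPα then recruits the phosphatases SHP-1 and SHP-2, which hold back the myosin that drives engulfment. CD24 gives a similar signal through Siglec-10 in humans, for which Siglecg is the mouse counterpart, whereas calreticulin, an endoplasmic reticulum (ER) chaperone that can reach the cell surface, is read by the receptor LRP1 as a sign to engulf. PD-L1 (Cd274) and PD-L2 (Pdcd1lg2) bind PD-1 on T cells and on some macrophages. B7-H3 (Cd276) is a related surface protein found on many solid tumors, and TIM-3 (Havcr2) is an inhibitory receptor of T cells and myeloid cells that binds galectin-9 (Lgals9).

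Sequence upstream of the gene start is shown for 3 members with different roles, because MYC binds E-boxes (CACGTG) and ATF6 acts through the ER stress element (CCAAT and CCACG with 9 bases between them). RefSeq windows of 300 bases, 250 of them before the start, matched 7 of the 9 members. Starts here are those of RefSeq. That of Cd47 lies inside the gene as placed by GENCODE vM21, which starts at 49800533. Cd47 has a second RefSeq window, from 49855411, which is not printed. The set of windows used here held none for Cd24a or Sirpa, so neither gene was searched for these motifs. The 250 upstream bases are given 5′ to 3′ on the gene's strand in mm10 (RefSeq, GRCm38.p6), with matches on either strand in capitals.
Calr, chr8:84846932-84847181, minus strand: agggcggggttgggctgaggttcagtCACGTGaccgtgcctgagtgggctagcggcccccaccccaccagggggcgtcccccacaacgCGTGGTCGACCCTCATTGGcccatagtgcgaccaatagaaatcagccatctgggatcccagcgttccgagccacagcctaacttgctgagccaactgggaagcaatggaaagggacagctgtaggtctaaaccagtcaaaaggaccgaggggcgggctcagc
Cd47, chr16:49855404-49855653, plus strand: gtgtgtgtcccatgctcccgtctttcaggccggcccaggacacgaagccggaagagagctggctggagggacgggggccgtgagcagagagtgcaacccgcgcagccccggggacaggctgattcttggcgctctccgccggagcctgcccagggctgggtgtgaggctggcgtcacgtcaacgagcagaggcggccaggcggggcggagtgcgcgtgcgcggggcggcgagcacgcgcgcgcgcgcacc
Cd274, chr19:29367188-29367437, plus strand: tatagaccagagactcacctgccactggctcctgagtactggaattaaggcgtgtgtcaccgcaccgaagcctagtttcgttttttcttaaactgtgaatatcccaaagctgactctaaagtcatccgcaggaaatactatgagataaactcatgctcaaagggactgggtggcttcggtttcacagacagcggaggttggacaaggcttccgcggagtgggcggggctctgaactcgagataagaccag
The Calr window held an E-box from -224 to -219 and an ER stress element, on the opposite strand, from -162 to -144 relative to the gene start. The windows of Cd47, Cd274, Pdcd1lg2, Cd276, Havcr2 and Lgals9 held neither motif. Of 32851 RefSeq windows of this length, 7.15% held an E-box and 0.119% an ER stress element.

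The reads counted on genes numbered 2716322 to 17073285 a tumor, and a floor of 3 reads equals 0.114 (M624) to 2.39 (M9) CPM, the counts scaled by edgeR to the normalized size of each library. Satellite-repeat genes took 23.2% to 81.0% of the reads in F187, M351, M408 and M9 and at most 0.0242% in the other 5 libraries. In these 4 libraries, genomic background, estimated from chemosensory receptor genes, made up 0.592% to 23.9% of the remaining reads. M624 and M664 had 3.47 and 6.35 CPM of Rn7sk, a nonpolyadenylated RNA, against at least 6545 CPM in the other 7. Both are Myc-knockin, and comparisons are therefore also given without them. The Myc transcript itself had 43.5 to 67.1 CPM in the p53-driven and 144 to 1045 CPM in the Myc-knockin tumors. Markers of osteoblasts, the cells in which the Cre is active, had a summed level of 65859 to 141753 CPM in the p53-driven and 3621 to 41542 CPM in the Myc-knockin tumors, most of it from the collagen genes Col1a1 and Col1a2. The osteocalcin genes Bglap and Bglap2 were called lower in the Myc-knockin tumors (log2 fold changes -5.34 and -5.42), with no reads of either in M408 and none of Bglap2 in M624. In whole-tumor RNA, fewer cells of a type and less RNA per cell cannot be told apart.

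Of the 8 members tested, 1 rose and none fell in the Myc-knockin tumors by edgeR, and 3 had an unadjusted p under 0.05, namely Cd24a, Cd47 and Sirpa, as did 26.8% of all genes tested. Cd24a rose, whereas Cd47, Sirpa and Calr had lower means that did not pass the test. Cd274, Cd276, Havcr2 and Lgals9 overlapped widely between the groups. Calls required a fold change over 1.5 and an adjusted p under 0.05 (edgeR's quasi-likelihood test, Benjamini-Hochberg over all genes tested). Over all 15365 genes, 809 were called (5.27%), 348 of them upward (2.26%) and 461 downward in Myc-knockin tumors (3%). The median log2 fold change of the 8 members was -0.38, and that of all genes tested was 0.14. Over all genes tested, 56.2% had a log2 fold change above 0, as did 2 of the 8 members. The number of members called was 3 with DESeq2 (Cd24a, Cd47 and Sirpa), which called 17.4% of all genes, and 3 with limma-voom (Cd24a, Sirpa and Calr), which called 10.8%. It was 2 without M624 and M664 (4.61% of all genes called), 2 without the 4 satellite-rich libraries (27.9%) and 0 with library size alone (0.885%). With 1 tumor left out it was 0 to 2, while 0.0292% to 10.4% of all genes were called.

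**Figure D1:**
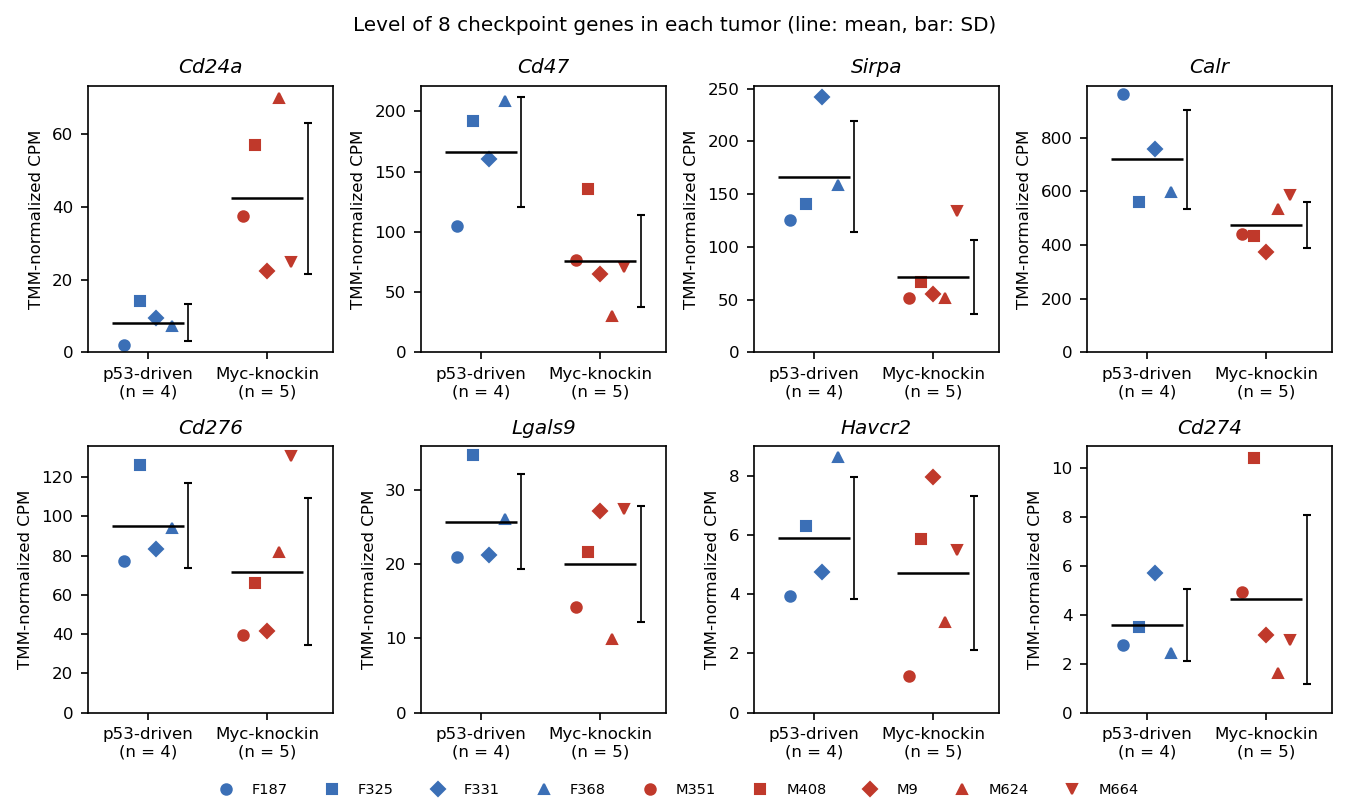
Expression of the 8 tested members in each of the 9 tumors, in TMM-normalized CPM on a linear axis from 0 for each gene, with blue points for p53-driven and red points for Myc-knockin tumors, a line at the group mean and a bar for the SD. Cd24a is the member in which every Myc-knockin tumor (22.3 CPM or more) lies above every p53-driven tumor (14.1 CPM or less).

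Cd24a (ENSMUSG00000047139, mm10 chromosome 10, 43578284 to 43584265, plus strand) encodes a small, heavily glycosylated surface protein anchored in the membrane by lipid. It had 1.97 CPM in F187, 14.1 in F325, 9.34 in F331 and 7.17 in F368. In the Myc-knockin tumors it had 37.5 CPM in M351, 57.1 in M408, 22.3 in M9, 69.9 in M624 and 24.9 in M664. The groups did not overlap, as was true of 13% of all genes tested. The mean was 8.14 ± 5.02 CPM (SD, n = 4) in the p53-driven and 42.4 ± 20.7 CPM (SD, n = 5) in Myc-knockin tumors, a ratio of 5.20. The log2 fold change was 2.35 (standard error 0.53, 95% interval 1.18 to 3.51, edgeR adjusted p = 0.0352). The two-sided exact permutation p was 0.0159, the smallest that 5 tumors against 4 allow and 24.1% of all genes tested had a permutation p under 0.05. F187 had 5 reads, of which 1.82 were expected as background, while the fewest reads in a Myc-knockin tumor were 28, in M9.

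Cd24a was also called without either set of libraries that stand apart. Its difference was 2.29 on the log2 scale without M624 and M664 (edgeR adjusted p = 0.0457) and 2.23 without the 4 satellite-rich libraries (edgeR adjusted p = 0.0250). The latter fit, here and below, has M624 and M664 as its only Myc-knockin tumors, so that in it the genotype and what sets this pair apart cannot be told apart. Its call was less firm than its direction. Over fits that each left out 1 tumor, its log2 fold change ranged from 2.04 to 2.74, but its adjusted p stayed under 0.05 in 3 of 9 fits and was above it without F187, F325, F331, F368, M351 or M624. Scaled by library size alone, its adjusted p was 0.155. A near-identical stretch of 218 bases (96.8% identity) is shared with Gm6212, which had 8 reads in all, so reads of that stretch may have been divided.

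CD24 is also made by red cell precursors, B cell precursors and neutrophils, so their markers are set beside it. The 8 erythroid markers summed to 6.69 to 21.2 CPM in the p53-driven tumors, and to 20.9 in M351, 47.3 in M408, 19.9 in M9, 218 in M624 and 785 in M664. The hemoglobin genes Hba-a1 and Hbb-bs had no reads in the p53-driven tumors, M351 and M408, while Hba-a1 had 102 CPM in M624 and 388 in M664. The 7 neutrophil markers summed to 4.82 to 18.6 CPM in the p53-driven and 4.46 to 136 CPM in the Myc-knockin tumors. The 6 B cell markers summed to 1.79 to 7.90 and 3.66 to 31.9 CPM. The highest B cell sums were in M9 (31.9 CPM) and M351 (18.5 CPM). These libraries had the largest shares of genomic background, 23.9% and 16.7% of the reads outside satellite-repeat genes. None of the 8 tested markers of these lists was called by edgeR, 3 had an unadjusted p under 0.05, DESeq2 called 1 and limma-voom 0. Their part in the rise of Cd24a was not tested.

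**Figure D2:**
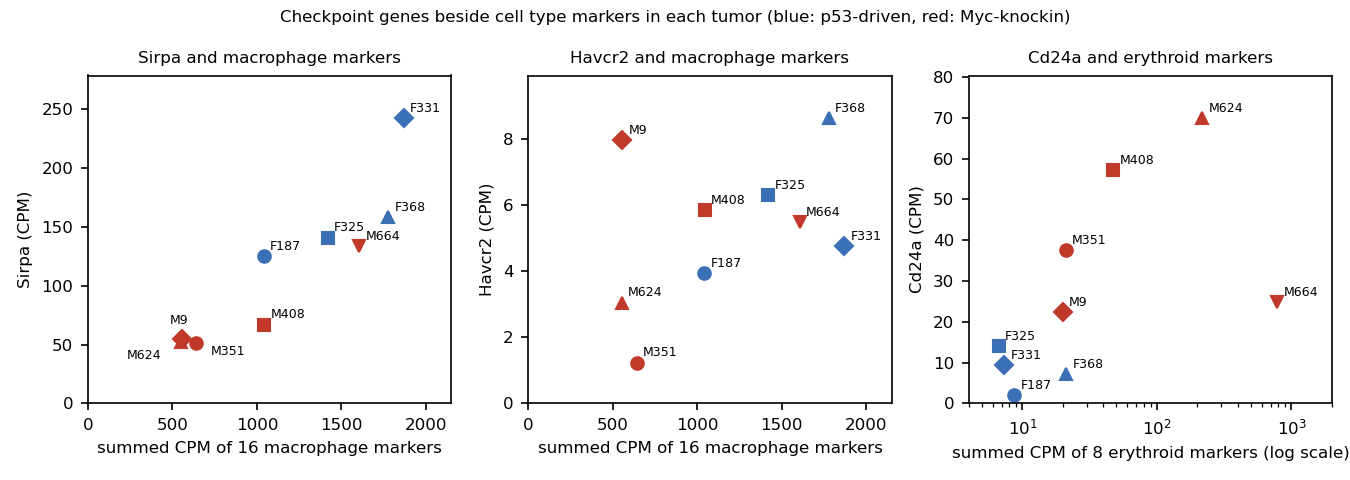
Sirpa and Havcr2 (CPM) against the summed CPM of 16 macrophage markers, and Cd24a against the summed CPM of 8 erythroid markers (log axis), 1 point per tumor, blue for p53-driven and red for Myc-knockin. In the plot of Sirpa, M664 (134 CPM) lies among the p53-driven tumors, and in the plot of Cd24a, M624 has 69.9 CPM of Cd24a at an erythroid sum of 218 CPM and M664 24.9 CPM at 785.

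Cd47 (ENSMUSG00000055447, chromosome 16, 49800533 to 49915010, plus strand), the ligand of SIRPα, had 105 CPM in F187, 192 in F325, 160.0 in F331 and 208 in F368. It had 76.3 CPM in M351, 136 in M408, 65.3 in M9, 30.4 in M624 and 70.6 in M664. M408 lay above F187, and apart from this pair the groups did not overlap. The means were 166 ± 45.5 CPM (SD, n = 4) and 75.7 ± 38.0 CPM (SD, n = 5), and the log2 fold change of -1.14 (standard error 0.39, 95% interval -2.0 to -0.28) did not pass the adjustment (edgeR adjusted p = 0.0985). The exact permutation p was 0.0317. Cd47 was lowest in M624, and without M624 and M664 its log2 fold change was -0.77 (edgeR adjusted p = 0.215). Without the 4 satellite-rich libraries it was -1.86 (edgeR adjusted p = 0.0262), and without M408 it was -1.44 (edgeR adjusted p = 0.0481), both past the threshold. The first of these rests on M624 and M664 alone for the Myc-knockin group.

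Sirpa (ENSMUSG00000037902, chromosome 2, 129592835 to 129632228, plus strand), the receptor of CD47 on myeloid cells, had 125 CPM in F187, 141 in F325, 242 in F331 and 159 in F368. Of the Myc-knockin tumors, M351 had 51.7 CPM, M408 67.0, M9 55.0, M624 51.9 and M664 134. Of these 5 tumors, 4 lay in a narrow range below every p53-driven tumor, and M664 lay inside the p53-driven range. The log2 fold change of -1.21 (standard error 0.36, 95% interval -1.99 to -0.43) did not pass the adjustment (edgeR adjusted p = 0.0677, exact permutation p = 0.0317). Without M664 it was -1.54 (edgeR adjusted p = 0.0296) and without M624 and M664 -1.46 (edgeR adjusted p = 0.0408), whereas without the 4 satellite-rich libraries it was -0.94 (edgeR adjusted p = 0.196).

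Macrophage markers are set beside Sirpa. The 16 markers, none of which was at 0 in any tumor, summed to 1040 to 1871 CPM in the p53-driven tumors, and to 641 in M351, 1045 in M408, 555 in M9, 552 in M624 and 1605 in M664. Of the 16, 3 were called, all lower in the Myc-knockin tumors: Csf1r, the receptor of the macrophage growth factor CSF1, with a log2 fold change of -2.47, Cd68, a lysosomal protein of macrophages, with -2.27, and Tyrobp, a signaling adaptor of myeloid receptors, with -2.13 (edgeR adjusted p = 0.0243, 0.0229 and 0.0392). The other 13 were not called, 5 of the 16 had a log2 fold change above 0 (the highest Cd14 at 1.13), and the median over the 16 was -0.33. Over all genes tested, 3% were called lower and 56.2% had a log2 fold change above 0. M408 had about the same marker sum as F187 (1040 CPM) with 67.0 against 125 CPM of Sirpa, but the 2 sums were made up differently. Csf1r, Cd68 and Tyrobp had 61.35, 39.92 and 19.78 CPM in M408 against 240.5, 225.5 and 90.45 in F187. Mrc1 and Ctss went the other way, with 165.2 and 178.7 CPM in M408 against 43.45 and 38.31 in F187. Relative to the mean log2 CPM of the 16 markers, Sirpa stood at 1.56 ± 0.43 (SD, n = 4) in the p53-driven and 1.07 ± 0.30 (SD, n = 5) in the Myc-knockin tumors. The difference of -0.49 did not pass (two-sided exact permutation p = 0.0952, adjusted p = 0.476 over 5 ratios compared in this way). Without M624 it was -0.60 (exact permutation p = 0.0286, not adjusted). Of 9 comparisons that each left out 1 tumor, only this 1 had a p under 0.05. Over 13 alternatives the difference ranged from -0.65 to -0.19 and the exact permutation p from 0.0286 to 0.8. The highest p was that without the satellite-rich libraries, where it cannot go below 0.2. Osteoclasts, bone-resorbing relatives of macrophages, were also unequal: 8 osteoclast markers summed to 2716 to 14151 CPM in the p53-driven and 124 to 2570 CPM in the Myc-knockin tumors, and 6 of the 8 were called lower. The part of either cell type in the level of Sirpa was not tested.

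Ligand and receptor were compared within each tumor. Cd47 relative to Sirpa, which does not depend on the scaling of the libraries, was -0.0025 ± 0.51 (SD, n = 4) on the log2 scale in the p53-driven and 0.03 ± 0.84 (SD, n = 5) in the Myc-knockin tumors (exact permutation p = 1). The Myc-knockin tumors stood on both sides, at 0.56 in M351, 1.02 in M408 and 0.25 in M9 and at -0.77 in M624 and -0.92 in M664. Without M624 and M664 the difference was 0.61 (exact permutation p = 0.229), and its sign turned in 6 of 13 alternatives.

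Of 9 partners of the CD47 and CD24 signals, 7 were tested, 6 had a log2 fold change below 0, and 1 was called lower. This was Myh9, the heavy chain of the nonmuscle myosin that drives engulfment, at 787 ± 85.0 CPM (SD, n = 4) in the p53-driven and 280 ± 55.8 CPM (SD, n = 5) in Myc-knockin tumors, with a log2 fold change of -1.49 (edgeR adjusted p = 0.0264). Myh9 is made by most cell types, tumor cells included. The list's median was -0.97. Over all genes tested the median was 0.14, 3% were called lower and 56.2% had a log2 fold change above 0. Ptpn6, which encodes SHP-1 and was singled out after its values were seen, had 29.9 ± 6.99 CPM (SD, n = 4) and 14.1 ± 3.92 CPM (SD, n = 5) without overlap, but did not pass (edgeR adjusted p = 0.0574). Of all genes tested, 7.54% were lower in Myc-knockin tumors without overlap. Siglecg, the receptor for the Cd24a signal, had at most 15 reads in a tumor and was not tested.

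Calr (ENSMUSG00000003814, chromosome 8, 84841850 to 84846934, minus strand), which encodes calreticulin, had 963 CPM in F187, 559 in F325, 756 in F331 and 596 in F368. It had 442 CPM in M351, 434 in M408, 372 in M9, 532 in M624 and 586 in M664. All but M664 lay below the lowest p53-driven tumor, though M624 by a small margin. The means were 718 ± 184 CPM (SD, n = 4) and 473 ± 85.2 CPM (SD, n = 5), and the log2 fold change of -0.60 (standard error 0.32, 95% interval -1.30 to 0.10) did not pass (edgeR adjusted p = 0.253, exact permutation p = 0.0317). Without the satellite-rich libraries, among them F187 with the highest level, it was -0.17.

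The other chaperones of the ER, listed beside calreticulin, were lower in the Myc-knockin tumors in 11 of 12 cases by the sign of the fold change, and 3 of the 12 were called by edgeR, 6 by DESeq2 and 8 by limma-voom. Of all genes tested, edgeR called 5.27%, DESeq2 17.4% and limma-voom 10.8%. Pdia4, a disulfide isomerase, had 302 ± 91.5 CPM (SD, n = 4) in the p53-driven and 113 ± 22.2 CPM (SD, n = 5) in Myc-knockin tumors, with a log2 fold change of -1.42 (edgeR adjusted p = 0.0289). Dnajc3, a co-chaperone and inhibitor of the kinase PERK, had 212 ± 90.9 and 74.6 ± 18.5 CPM (SD, n = 4 and 5, edgeR adjusted p = 0.0321), and Dnajb11, a co-chaperone of BiP, had a log2 fold change of -0.96 (edgeR adjusted p = 0.0441). The median over the 12 was -0.74, against 0.14 over all genes tested. Calr relative to the mean log2 CPM of these chaperones was 1.44 ± 0.36 (SD, n = 4) and 1.64 ± 0.17 (SD, n = 5), a difference of 0.20 that did not pass (exact permutation p = 0.270, adjusted p = 0.503 over 5 ratios).

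Of 16 receptors and bridging proteins that recognize pro-phagocytic signals, 15 were tested and 1 was called lower, with a median log2 fold change of -0.70. Over all genes tested, 3% were called lower and the median was 0.14. Itgav, the integrin αv subunit that pairs with several β subunits to bind the bridging protein MFG-E8, had 587 ± 149 CPM (SD, n = 4) and 104 ± 41.4 CPM (SD, n = 5), with a log2 fold change of -2.50 (edgeR adjusted p = 0.0175). Integrin αvβ3 is also abundant in osteoclasts, whose markers were lower in the same tumors as given above. The part of osteoclasts in the level of Itgav was not tested. Lrp1, the receptor for surface calreticulin, was singled out after its values were seen. It had 918 ± 287 CPM (SD, n = 4) in the p53-driven and 342 ± 103 CPM (SD, n = 5) in Myc-knockin tumors, without overlap, and its log2 fold change of -1.42 missed the threshold (edgeR adjusted p = 0.0523). Such a separation, with Myc-knockin tumors lower, was seen in 7.54% of all genes tested.

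**Figure D3:**
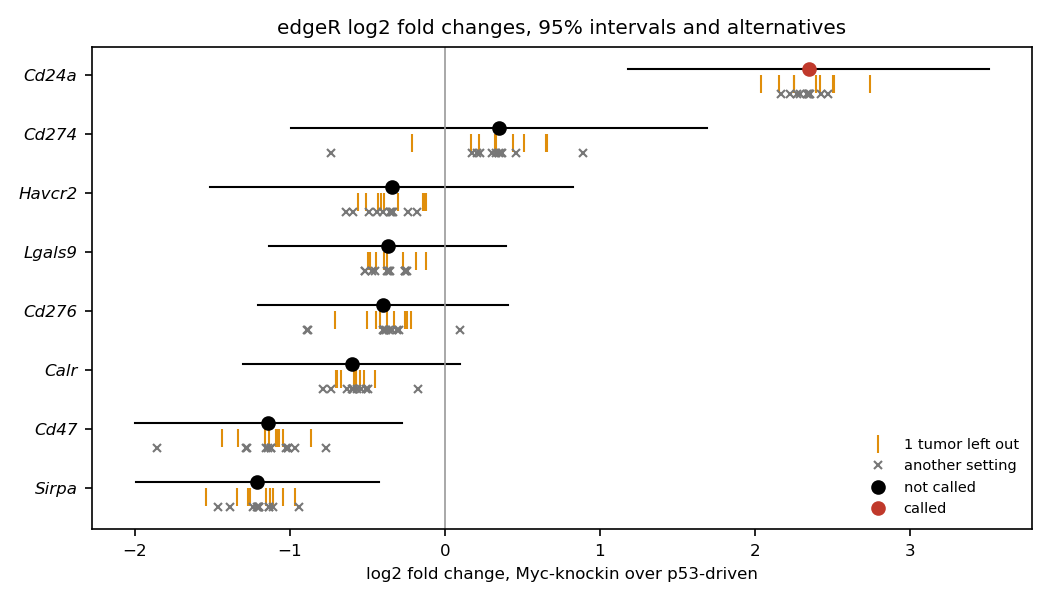
Log2 fold change of each member, Myc-knockin over p53-driven, from edgeR's quasi-likelihood fit, for the 8 tested members (point, red where called), with 95% intervals as bars, the fits without 1 tumor as orange ticks and the other alternatives as grey crosses. Cd24a (2.35) is the called member, the intervals of Cd47 and Sirpa lie below 0 without passing the adjustment over all genes, and the others cross 0.

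Cd274 (ENSMUSG00000016496, chromosome 19, 29367455 to 29388095, plus strand), which encodes PD-L1, was sparse in all tumors. It had 2.76 CPM in F187, 3.50 in F325, 5.71 in F331 and 2.43 in F368, and 4.92 CPM in M351, 10.4 in M408, 3.19 in M9, 1.64 in M624 and 2.98 in M664. M408 stood highest and M624 lowest, both Myc-knockin, with the p53-driven tumors in between. The means were 3.60 ± 1.47 CPM (SD, n = 4) and 4.63 ± 3.45 CPM (SD, n = 5). The log2 fold change was 0.35 (standard error 0.61, edgeR adjusted p = 0.750), and its 95% interval, from -0.99 to 1.69, leaves room for a difference in either direction. The sign turned without M408 (-0.21) and without the satellite-rich libraries (-0.73). The reads were few, with 7 in F187, 8 in M351 and 4 in M9, and background alone would give 4.04 in M351 and 4.45 in M9. An antisense gene, ENSMUSG00000117964, shares 511 bases of exon with Cd274 and had 49 reads in all. The strand setting of the counting is not given in the sources used here.

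Pdcd1lg2 (ENSMUSG00000016498, chromosome 19, 29410919 to 29471161, plus strand), which encodes PD-L2 and lies next to Cd274, had 18 reads over all 9 tumors. They were 3, 1, 1 and 0 in F187, F325, F331 and F368, and 5, 4, 4, 0 and 0 in M351, M408, M9, M624 and M664. Of the 18, 16 came from the 4 satellite-rich libraries, where 6.28 were expected as background, and 2 from the other 5, where 0.343 were expected. The 2 deepest libraries, M624 and M664, had none, which allows up to 0.114 and 0.130 CPM. No difference was detectable at this depth (log2 fold change 1.87, standard error 1.94, edgeR adjusted p = 0.655 in a fit without the filter). The log2 ratio of Cd274 to Pdcd1lg2, with a prior count added to both, was 3.26 ± 1.47 (SD, n = 4) and 2.29 ± 1.83 (SD, n = 5) (exact permutation p = 0.302).

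**Figure D4:**
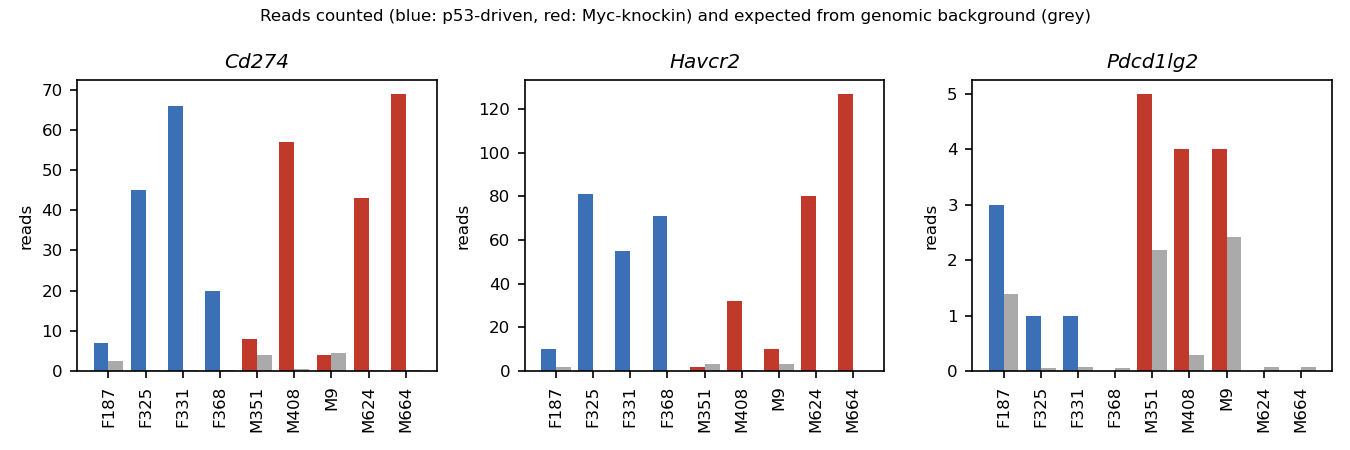
Reads counted on Cd274, Havcr2 and Pdcd1lg2 in each tumor (blue bars p53-driven, red bars Myc-knockin) beside the reads expected from genomic background (grey bars). The 4 reads of Cd274 in M9 and the 2 of Havcr2 in M351 are no more than the background (4.45 and 3.04 expected), and Pdcd1lg2 never exceeds 5 reads.

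Interferon gamma, made by T cells and natural killer cells, raises PD-L1. Of 16 genes of this pathway and of PD-L1 turnover, 15 were tested, 12 had a log2 fold change below 0, the median was -0.69, and 1 was called lower. Over all genes tested, 3% were called lower, 56.2% had a log2 fold change above 0, and the median was 0.14. Ifngr2, a chain of the interferon gamma receptor, had 76.6 CPM in F187, 95.1 in F325, 94.0 in F331 and 92.5 in F368. It had 20.3 CPM in M351, 42.7 in M408, 56.6 in M9, 19.7 in M624 and 35.5 in M664, all below the p53-driven tumors (log2 fold change -1.37, edgeR adjusted p = 0.0421). All Myc-knockin tumors lay below all p53-driven tumors in 7.54% of all genes tested. Ifng itself had too few reads to be tested. T cell markers were sparse, with 3 of 10 tested, none called by edgeR, 1 with an unadjusted p under 0.05 and 1 called by DESeq2, and sums of 6.81 to 29.8 CPM in the p53-driven and 5.22 to 62.1 CPM in the Myc-knockin tumors. The highest T cell sums were in M9 (62.1 CPM) and M351 (46.8 CPM), the libraries with the largest shares of genomic background.

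Cd276 (ENSMUSG00000035914, chromosome 9, 58524298 to 58555437, minus strand), which encodes B7-H3, was far more abundant than the PD-1 ligands. It had 77.4 CPM in F187, 126 in F325, 83.3 in F331 and 94.2 in F368, and 39.4 CPM in M351, 65.9 in M408, 41.4 in M9, 81.6 in M624 and 131 in M664. M664 exceeded every p53-driven tumor, whereas M351, M408 and M9 lay below all of them. The log2 fold change was -0.40 (standard error 0.37, 95% interval -1.20 to 0.41, edgeR adjusted p = 0.520). It was -0.88 without M624 and M664 and 0.10 without the satellite-rich libraries, neither past the threshold. Gm10657 on the opposite strand shares 416 bases of exon and had 40 reads. Of 26 further genes of the B7 and checkpoint families, 19 were tested and none was called by edgeR, with 9 above and 10 below 0 and a median of -0.01 that turned to 0.14 with upper-quartile normalization. Of these, 3 had an unadjusted p under 0.05, DESeq2 called 1 and limma-voom 0. Pdcd1, the PD-1 gene, was not tested for want of reads.

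Havcr2 (ENSMUSG00000020399, chromosome 11, 46454935 to 46481255, plus strand), the TIM-3 gene, had 3.95 CPM in F187, 6.30 in F325, 4.76 in F331 and 8.63 in F368. It had 1.23 CPM in M351, 5.86 in M408, 7.97 in M9, 3.05 in M624 and 5.48 in M664. The groups overlapped over most of their range (log2 fold change -0.34, standard error 0.53, 95% interval -1.51 to 0.83, edgeR adjusted p = 0.716). The value in M351 came from 2 reads, with 3.04 expected as background, and that in M9 from 10 reads, with 3.34 expected. Relative to macrophage markers, the log2 difference was 0.30 (exact permutation p = 0.587), and it turned to -0.31 once background was subtracted.

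Lgals9 (ENSMUSG00000001123, chromosome 11, 78962974 to 78984946, minus strand), which encodes galectin-9, had 20.9 CPM in F187, 34.6 in F325, 21.3 in F331 and 26.0 in F368. It had 14.2 CPM in M351, 21.6 in M408, 27.1 in M9, 9.94 in M624 and 27.4 in M664. M351 and M624 were below the p53-driven tumors and the other 3 were among them. The log2 fold change of -0.37 (standard error 0.35, 95% interval -1.13 to 0.40) did not pass (edgeR adjusted p = 0.529).

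Levels can be ranked between genes only per length of transcript. As means of CPM per kilobase of exon, Calr led with 249 in the p53-driven and 164 in the Myc-knockin tumors, and it ranked first in all 9 tumors. In the p53-driven tumors Sirpa (33.9), Cd47 (26.5) and Cd276 (26.1) followed, whose order changed between tumors, then Lgals9 (12.0), Cd24a (3.16), Havcr2 (2.17), Cd274 (0.994) and Pdcd1lg2 (0.172). In the Myc-knockin tumors Cd276 (19.6), Cd24a (16.4), Sirpa (14.6), Cd47 (12.1) and Lgals9 (9.38) stood close together, above Havcr2 (1.73), Cd274 (1.28) and Pdcd1lg2 (0.714). Cd24a ranked second in M351, M408 and M624 and sixth in M9 and M664. Within groups the SD of log2 CPM was 0.30 for Calr and 0.94 for Cd24a, the least and the most variable of the 8 members tested, and 0.67 for the median gene.

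For 4 members, the genes of most similar profile over the 9 tumors were found among 9533 tested genes with a mean of at least 10 CPM, by the root mean square difference of centred log2 CPM. The nearest to Cd47 were Tab2 (0.19), Heg1 (0.21) and Ccdc186 (0.24), and those to Sirpa were Slc39a1 (0.21), Sgpl1 (0.24) and Abr (0.26). The nearest to Calr were Lamtor3 (0.16), Arsa (0.17) and Hibadh (0.19). The nearest to Cd274 were more distant, with Btaf1 at 0.30, Stambpl1 at 0.35 and Atp10a at 0.36. Cd274 itself had group means of only 3.60 and 4.63 CPM, and the part of counting error in its distances was not tested. Distances were not scaled to each member's own spread over the tumors, which was 0.84 for Cd47, 0.78 for Sirpa, 0.40 for Calr and 0.70 for Cd274.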

How the data were processed

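RNA of 9 whole tumors was sequenced, 4 p53-driven and 5 Myc-knockin. The authors deposited raw counts per gene, made with Trim Galore, STAR, mm10 and featureCounts. The paper gives a commit of Trim Galore and names a stranded library kit. Versions of STAR and featureCounts are not given in the sources used here. Neither are the settings of the counting for strand and multimapping reads. From these counts, edgeR 4.0.16 in R 4.3.3 gave TMM-normalized CPM and quasi-likelihood tests (filterByExpr with a minimum count of 10, 15365 genes, Benjamini-Hochberg adjustment, standard errors from the F statistic). Log2 CPM used a prior count of 2, and exact permutation tests used all 126 arrangements. Whether tumors share litters is not stated. Genomic background came from the reads per kilobase of exon on 1503 chemosensory receptor genes. Positions and exon lengths are from GENCODE vM21, which held 55111 of the 55367 gene identifiers. Alternatives included DESeq2 1.42.0 and limma-voom 3.58.1. The methods were tested on simulated data. Members and lists were chosen with earlier results of these data known. Named are the members, every called gene of each pathway list, Myc, and the 3 nearest profiles of 4 members, while other genes (Ptpn6, Lrp1, Siglecg, Ifng, Pdcd1, Rn7sk, single cell type markers) were chosen after their values were seen. Floors of 3 counts cover counting error only, and the 95% intervals, from edgeR's standard errors, include the spread between tumors. Proteome and human data were not analysed here.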

Additional observations from a re-analysis of the deposited data

Results flagged for a closer look

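Sirpa stood apart in 1 tumor. Its log2 CPM in the Myc-knockin tumor M664 was 7.06, and the nearest of the other Myc-knockin tumors had 6.07, a gap of 0.727 of the group's range against a critical value of 0.71 for 5 tumors. M664 also had the highest sum of macrophage markers of its group, at 1605 CPM, and the part of these in its Sirpa level was not tested. This was 1 of 24 such tests, and chance alone singles out about 1 in 20 groups.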

How the results depend on the processing

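No paired analysis was possible because the table's columns carry no replicate numbers. The number of genes called was 136 with library size alone, 494 without the filter, 1316 with at least 10 counts in every tumor, 2670 with DESeq2, 1663 with limma-voom, 4595 without F187, M351, M408 and M9, and 5 (without F368) to 1588 (without M9) with 1 tumor left out. It was 8 without F325, 6 without F331, 335 without F187, 371 without M351 and 375 without M624. The share of calls that were higher in Myc-knockin tumors, 43.0%, was 64.5% with upper-quartile normalization, 59.7% with at least 10 counts in every tumor, 58.0% with DESeq2, 54.6% with background subtracted, 56.5% without the satellite-rich libraries and 58.1% without M9. Library size alone moved the median log2 fold change of all genes from 0.14 to 0.03. Members called numbered 0 with library size alone, 3 with DESeq2 (Cd24a, Cd47 and Sirpa), 3 with limma-voom (Calr, Cd24a and Sirpa), 2 without M624 and M664, 2 without the satellite-rich libraries and 0 to 2 with 1 tumor left out. Past the threshold came Cd47 with DESeq2 (-1.12, adjusted p = 0.0449) and without the satellite-rich libraries (-1.86). Sirpa passed with at least 10 counts in every tumor (-1.10, adjusted p = 0.0491), DESeq2 (-1.20), limma-voom (-1.39) and without M624 and M664 (-1.46), and Calr with limma-voom (-0.79, adjusted p = 0.0480). Cd24a did not pass with library size alone (2.35). Signs turned without the satellite-rich libraries for Cd274 (-0.73), Pdcd1lg2 (-3.06), Cd276 (0.10) and Cd47 over Sirpa (-0.92), and with background subtracted for Havcr2 over macrophage markers (-0.31). The causes were not tested. With 1 tumor left out, log2 fold changes ranged from -1.44 to -0.86 for Cd47, 2.04 to 2.74 for Cd24a, -1.54 to -0.96 for Sirpa, -0.70 to -0.45 for Calr, -0.21 to 0.66 for Cd274, 1.26 to 3.81 for Pdcd1lg2, -0.71 to -0.22 for Cd276, -0.56 to -0.12 for Havcr2 and -0.49 to -0.12 for Lgals9. Ratios ranged from -0.64 to -0.32 for Sirpa over macrophage markers, -0.0063 to 0.62 for Havcr2 over macrophage markers, -1.69 to -0.40 for Cd274 over Pdcd1lg2, -0.22 to 0.27 for Cd47 over Sirpa, where it turned without F187, F331, M351, M408 or M9, and 0.10 to 0.35 for Calr over ER chaperones. With at least 10 counts in every tumor, Cd24a, Cd274, Havcr2 and Pdcd1lg2 gave no value. Exact permutation tests cannot go below 0.0571 among the 7 tumors without M624 and M664, or 0.2 among the 5 without the satellite-rich libraries.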
